A study of Mus musculus with 4 samples.

Results

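The cells described here are dendritic cells of mouse skeletal muscle that carry transcripts of the lectin receptor gene Cd209a, and they were picked from single-cell counts by a rule on measured values. A barcode was taken if it held at least 1000 unique molecular identifiers (UMIs, 1 per captured transcript), at least 500 genes and at most 15% mitochondrial UMIs. It also had to hold at least 10 UMIs of the MHC class II genes H2-Aa, H2-Ab1 and Cd74 together, and at least 3 UMIs of Cd209a, Clec10a and Flt3 together with at least 1 of Cd209a. Barcodes with more than 4 UMIs of the complement genes C1qa, C1qb and C1qc, with any UMI of Xcr1 or Clec9a, or with more than 1 UMI of Ccr7 were left out. So were those with more than 1 UMI of the lymphocyte genes Cd3e and Cd79a or of the stromal and vessel genes Pdgfra, Lum and Cdh5. The rule left 713 of 28163 barcodes.

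The study compared wild-type (WT) with mdx5cv mice, both 14 weeks old, in 2 muscles, a limb muscle (quadriceps) and the main breathing muscle (diaphragm). The mdx5cv mouse carries a chemically induced mutation of the dystrophin gene Dmd and is a model of Duchenne muscular dystrophy, in which muscle fibres degenerate, regenerate and are replaced in part by fibrous tissue. The mononuclear cells were cryopreserved, thawed and profiled with the 10x Genomics 3' chemistry v3.1. There was 1 library for each of the 4 groups, all at the same age and with no treatment named, and the labels do not give the background strain, the sex or the number of mice behind a library. Differences below thus compare single libraries, and none carries a p-value. Expression is given as CPM, the UMIs of a gene summed over the cells of a group for every 1000000 UMIs of those cells. All intervals are 95% intervals for counting error alone; how much cells, mice or preparations vary is not in them.

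Dendritic cells take up antigen in tissues, present it on MHC molecules and carry it to lymph nodes, where they prime T cells. Conventional dendritic cells of type 2 (cDC2) present mainly on MHC class II and depend on the transcription factor IRF4, whereas those of type 1 (cDC1) depend on IRF8 and take up dead cells. Both arise under the growth factor receptor FLT3. Cd209a and Mgl2 encode C-type lectins that bind sugars on pathogens and on damaged tissue. Cd209a is also transcribed by dendritic cells that arise from monocytes during inflammation, and the rule used here does not separate these from cDC2.

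The libraries held between 18837891 and 62780685 UMIs, and 4911 to 8334 barcodes each passed the depth and mitochondrial limits. WT muscle gave 74 Cd209a cells from quadriceps and 41 from diaphragm, and mdx5cv muscle 357 and 241. Their median depths were 4574 and 6076 UMIs in WT and 5247 and 6032 UMIs in mdx5cv. Their summed UMIs were 359097 and 258967 in WT and 2077605 and 1528355 in mdx5cv, so the WT values rest on fewer counts. No barcode of a Cd209a cell was shared between libraries. RNA from outside the cells, estimated from stromal, vessel and muscle markers against barcodes with 10 to 100 UMIs, made up 2.83% and 1.19% of their UMIs in WT and 4.22% and 2.02% in mdx5cv, each time with quadriceps first.

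The genes behind the rule were present in all 4 libraries, which is a description and not a result, since they chose the cells. Cd209a (chr8:3743397-3748984, minus strand, GRCm38) stood at 2531 CPM in WT and 2187 CPM in mdx5cv quadriceps and 2487 CPM in WT and 1969 CPM in mdx5cv diaphragm. Clec10a, another sugar-binding lectin, stood at 351, 580.5, 220.1 and 513 CPM in the same order, which is kept below wherever 4 values are given without names, and Flt3 at 55.7, 143, 34.8 and 109 CPM. Mgl2, a close relative of Clec10a (chr11:70130329-70137550, plus strand, GRCm38), was not part of the rule. It stood at 2300.2 CPM in WT and 615 CPM in mdx5cv quadriceps and 1657 CPM in WT and 750.5 CPM in mdx5cv diaphragm.

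With each cell thinned to 2000 UMIs, Mgl2 had a UMI in 75.3%, 37.1%, 73.2% and 38.4% of the Cd209a cells, in the order WT quadriceps, mdx5cv quadriceps, WT diaphragm and mdx5cv diaphragm. These shares cover 73, 345, 41 and 232 cells deep enough to be thinned. Fibro/adipogenic progenitors, muscle mesenchymal cells that should lack the gene, had a Mgl2 UMI in 0.0411% to 0.303% of cells after the same thinning. Their median depths before thinning were 3624 to 5260 UMIs. Here and below these progenitors were chosen by Pdgfra and Lum, with no UMI of the leukocyte gene Ptprc or of the C1q genes. Barcodes with stray leukocyte RNA were thus left out in part, which lowers such shares in advance. Both WT groups thus had the gene in most cells, and both mdx5cv groups in a minority.

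Transcription factors of the cDC2 program were set beside those of like cells taken from the same libraries by fixed UMI limits. The cDC1 were chosen by Xcr1 and Clec9a, and macrophages by the C1q genes. Monocytes were chosen by Ly6c2, Chil3 and Plac8, with few class II UMIs and none of Cd209a. WT gave only 17 monocytes in quadriceps and 9 in diaphragm, with 63492 and 41030 UMIs in all, so their low values rest on few counts. Irf4, which cDC2 need, stood at 52.9, 55.4, 65.6 and 73.3 CPM in the Cd209a cells and at 0 to 11.3 CPM in cDC1, 0 to 8.65 CPM in monocytes and 10.1 to 26.5 CPM in macrophages. Zbtb46, a factor of conventional dendritic cells that monocytes and macrophages lack, stood at 16.7, 37.5, 23.2 and 34 CPM against 0 to 2.24 CPM in monocytes and 0 to 5.70 CPM in macrophages. It stood at 0 to 96 CPM in cDC1, above the Cd209a cells in each library but WT diaphragm, which gave 5 cDC1. Irf8, the cDC1 factor, stood at 0, 64, 3.86 and 76.6 CPM in the Cd209a cells and at 1106 to 1959 CPM in cDC1. In monocytes it stood at 0 to 210 CPM and in macrophages at 70.6 to 246 CPM. The lymphoid-type receptor gene Klrd1 stood at 379, 460.1, 147 and 552 CPM, at 0 to 209 CPM in cDC1, at 3.35 to 73.1 CPM in monocytes and at 1.77 to 13.3 CPM in macrophages. Sirpa and Napsa, also cDC2 list genes, did not set the Cd209a cells apart in this way. Sirpa stood at 131, 260, 108 and 179 CPM, against 24.4 to 419 CPM in monocytes and 182 to 693 CPM in macrophages. Napsa stood at 537, 486, 382 and 608 CPM, against 295 to 662 CPM in monocytes.

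Summed by list, marker genes of macrophages and monocytes stood lower than in those cells themselves. The 15 macrophage markers summed to 663, 768, 626 and 466 CPM in the Cd209a cells, in the order WT quadriceps, mdx5cv quadriceps, WT diaphragm and mdx5cv diaphragm, against 15035 to 18630 CPM in macrophages. Macrophages were chosen by many C1q UMIs and Cd209a cells by few, which favoured such a gap in advance. Mertk, Ms4a7 and Folr2 were among the markers at 0 in the WT quadriceps cells, where 9 of the 15 were detected, while all 15 were detected in mdx5cv quadriceps. The 10 monocyte markers summed to 1420, 1785, 1521 and 1575 CPM, of which Ccr2, the receptor that brings monocytes and cDC2 precursors into tissue, made up 699, 740.3, 517 and 560.1 CPM. In monocytes the list summed to 5752 to 9730 CPM, which their choice by Ly6c2, Chil3 and Plac8 of the same list raised in advance. T cell markers summed to 0 to 9.15 CPM and NK cell markers to 0 to 5.23 CPM. Markers of cDC2A cells, the cDC2 subset marked by Tbx21, summed to 0 to 21.7 CPM, and those of cDC2B cells, a list with Mgl2 and Cx3cr1, to 1476 to 3150 CPM. Endothelial markers reached 518 CPM in WT quadriceps and 15.4 to 71.7 CPM elsewhere.

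**Figure D1:**
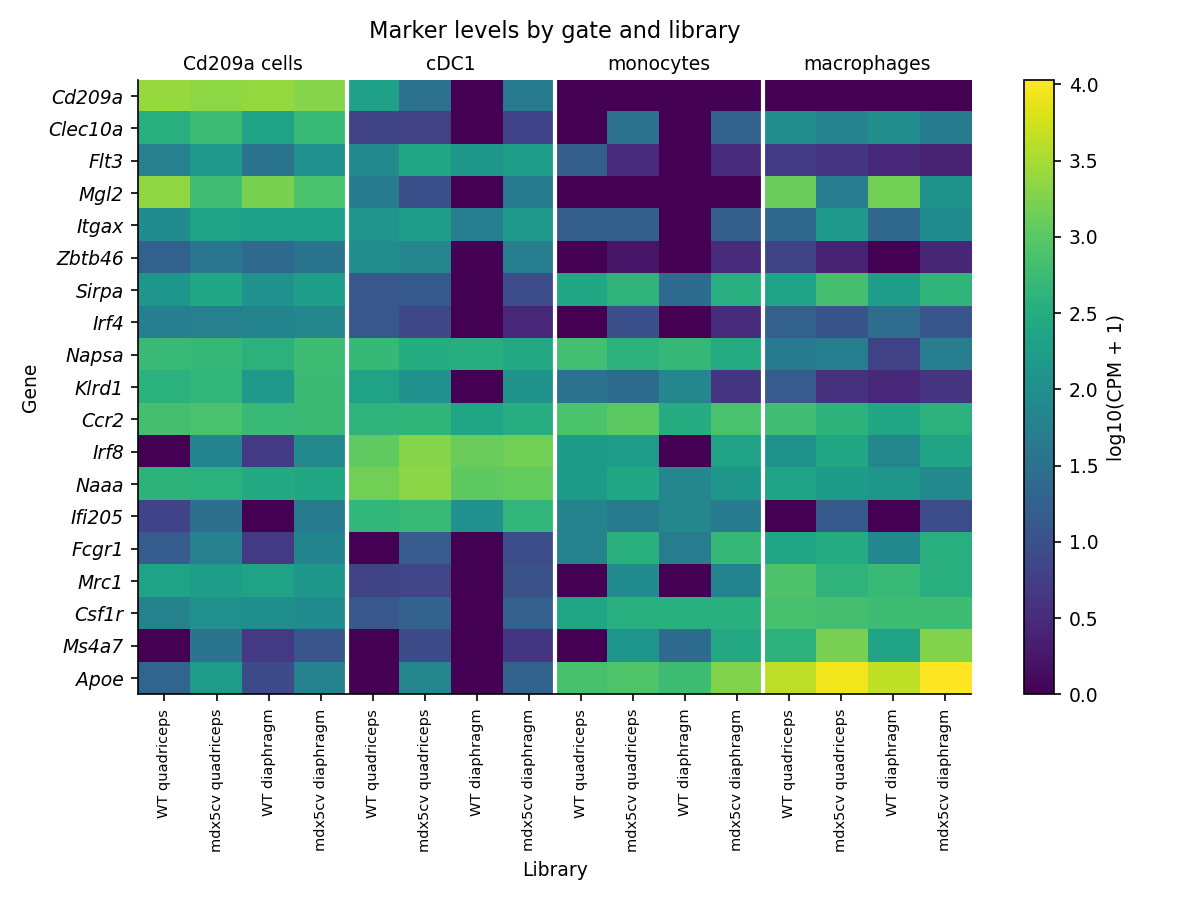
Heat map of 19 marker genes (rows) in Cd209a cells, cDC1, monocytes and macrophages of each library (columns), coloured by log10(CPM + 1). Cd209a, Clec10a and Flt3 were used to choose the Cd209a cells, Irf8 stands between 1106 and 1959 CPM in cDC1 and at most 76.6 CPM in Cd209a cells, and Apoe and Ms4a7 are high in macrophages.

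Cells close to a limit of the rule were counted with the other limits kept. In mdx5cv quadriceps 15 cells had exactly 3 UMIs of Cd209a, Clec10a and Flt3 together, of which 46.7% had a Mgl2 UMI, and 20 cells with 2 such UMIs fell just outside, of which 35% had one. In the same library 8 Cd209a cells had 3 or 4 C1q UMIs, and 5 cells with 5 or 6 were left out. In mdx5cv diaphragm 12 cells were just inside the first limit and 10 just outside, with Mgl2 in 33.3% and 30%. The WT libraries had 4 and 5 cells just inside and 8 and 3 just outside. At the limit on Cd209a itself, 35 mdx5cv quadriceps cells had no Cd209a UMI and fell outside, of which 31.4% had a Mgl2 UMI. Of the 17 cells there with exactly 1 Cd209a UMI, which were taken, 11.8% had one. In mdx5cv diaphragm 10 cells fell outside this limit and 12 just inside, with Mgl2 in 20% and 33.3%.

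Cd209a cells were a larger share of the barcodes in mdx5cv than in WT muscle, in both muscles. In quadriceps their share was 1.51% (1.18 to 1.89) in WT against 4.28% (3.86 to 4.74) in mdx5cv, a ratio of 2.84 (2.21 to 3.70). In diaphragm it was 0.546% (0.392 to 0.739) against 3.26% (2.86 to 3.69), a ratio of 5.97 (4.27 to 8.53). Their share rose less than that of macrophages, which was 11.4 (9.70 to 13.5) times as high in mdx5cv as in WT quadriceps and 10.8 (8.96 to 13.1) times in diaphragm. The intervals of the Cd209a and macrophage ratios did not overlap in either muscle. Macrophages too were chosen by raw UMIs, and their median depth in quadriceps was 2853 UMIs in WT against 6247 UMIs in mdx5cv. No ratio of the cells set beside the Cd209a cells was recomputed at equal depth, nor any share among them.

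The other dendritic cells and the monocytes moved in the same direction by other amounts. The cDC1 share was 5.77 (3.90 to 8.84) times as high in mdx5cv quadriceps and 26.2 (10.9 to 82.0) times in diaphragm, where WT gave only 5 cDC1. Monocytes, the blood-borne precursors of macrophages, were 11.5 (7.10 to 20.1) and 18.1 (9.27 to 40.2) times as frequent, where WT gave 17 and 9 of them. The share of Ccr7 dendritic cells, the migratory state, was 28.3 (4.84 to 1140.2) times as high in quadriceps, where WT gave 1 such cell, and 2.33 (1.46 to 3.81) times in diaphragm, where the interval lay below that of the Cd209a cells. Among Cd209a cells, cDC1, Ccr7 dendritic cells, monocytes and macrophages as 1 total, Cd209a cells therefore fell from 26.7% (21.6 to 32.3) in WT to 8.82% (7.97 to 9.74) in mdx5cv quadriceps. The corresponding shares in diaphragm were 20.2% (14.9 to 26.4) and 12.8% (11.3 to 14.4). Among the 3 kinds of dendritic cell alone their share in quadriceps was 71.8% (62.1 to 80.3) for WT against 52.6% (48.7 to 56.4) for mdx5cv. In diaphragm it was 56.2% (44.1 to 67.8) for WT against 55.8% (51.0 to 60.5), with overlapping intervals.

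Between muscles, the share in diaphragm was 0.760 (0.643 to 0.898) times that in quadriceps in mdx5cv and 0.362 (0.241 to 0.537) times in WT. The WT quadriceps library was the shallowest, with a median of 2055 UMIs per barcode against 4356 to 5329 in the others, and the share depended on depth. At a minimum of 2000 UMIs the WT quadriceps share was 2.87%, which brought the quadriceps genotype ratio down to 1.62 and the WT diaphragm to quadriceps ratio to 0.206. With every barcode thinned to 1500 UMIs these ratios were 1.94 and 0.203. All shares are of cells recovered by dissociation and freezing, so they also move with how many other cells were recovered.

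**Figure D2:**
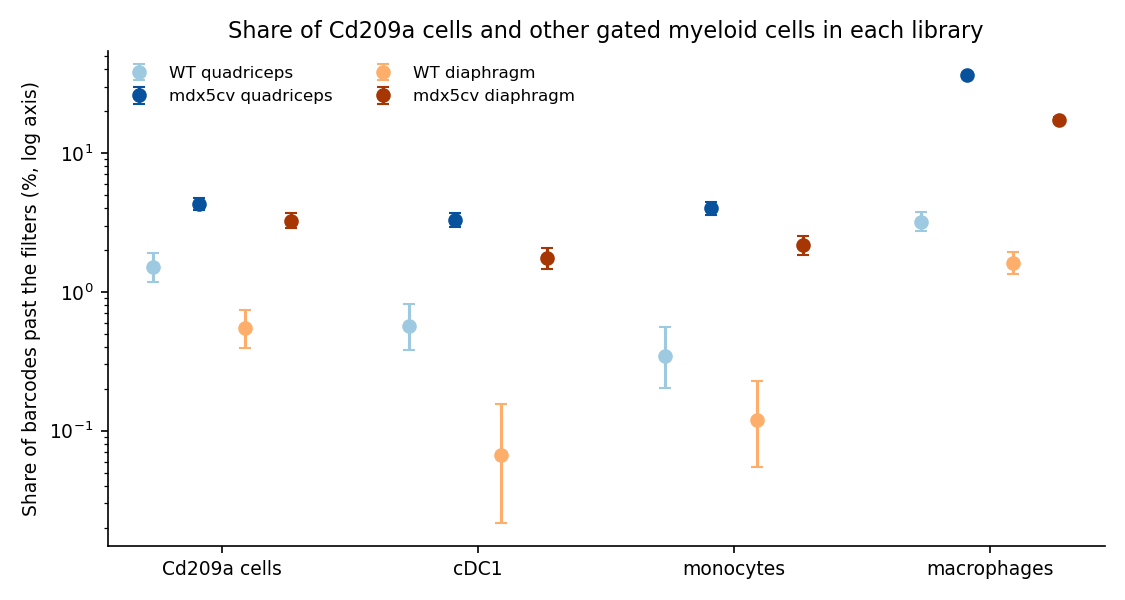
Share of barcodes (percent, log axis) that were Cd209a cells, cDC1, monocytes or macrophages in each library, with exact binomial 95% intervals as bars. The Cd209a share lies at 1.51% and 0.546% in WT and at 4.28% and 3.26% in mdx5cv, a smaller step between genotypes than that of macrophages.

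In the expression comparisons a gene was tested if it reached 20 CPM in 1 of the libraries compared and 10 UMIs in both together, and called higher or lower at a ratio of at least 1.5 with an interval that excluded 1. Of 5798 genes tested in quadriceps, 17.5% were called higher and 6.92% lower in mdx5cv than in WT Cd209a cells. Of 5299 genes tested in diaphragm, 10.7% were higher and 6.77% lower. The median gene itself stood 0.26 and 0.20 above 0 on the log2 scale, and with ratios taken relative to that median the split turned, to 510 higher and 746 lower genes in quadriceps and 328 and 562 in diaphragm, from 1013 and 401, and 568 and 359. Both muscles were compared in separate libraries, and 271 genes were called higher in both and 121 lower in both, of 5037 tested in both. Another 20 were higher in quadriceps and lower in diaphragm, and 3 the reverse.

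**Figure D3:**
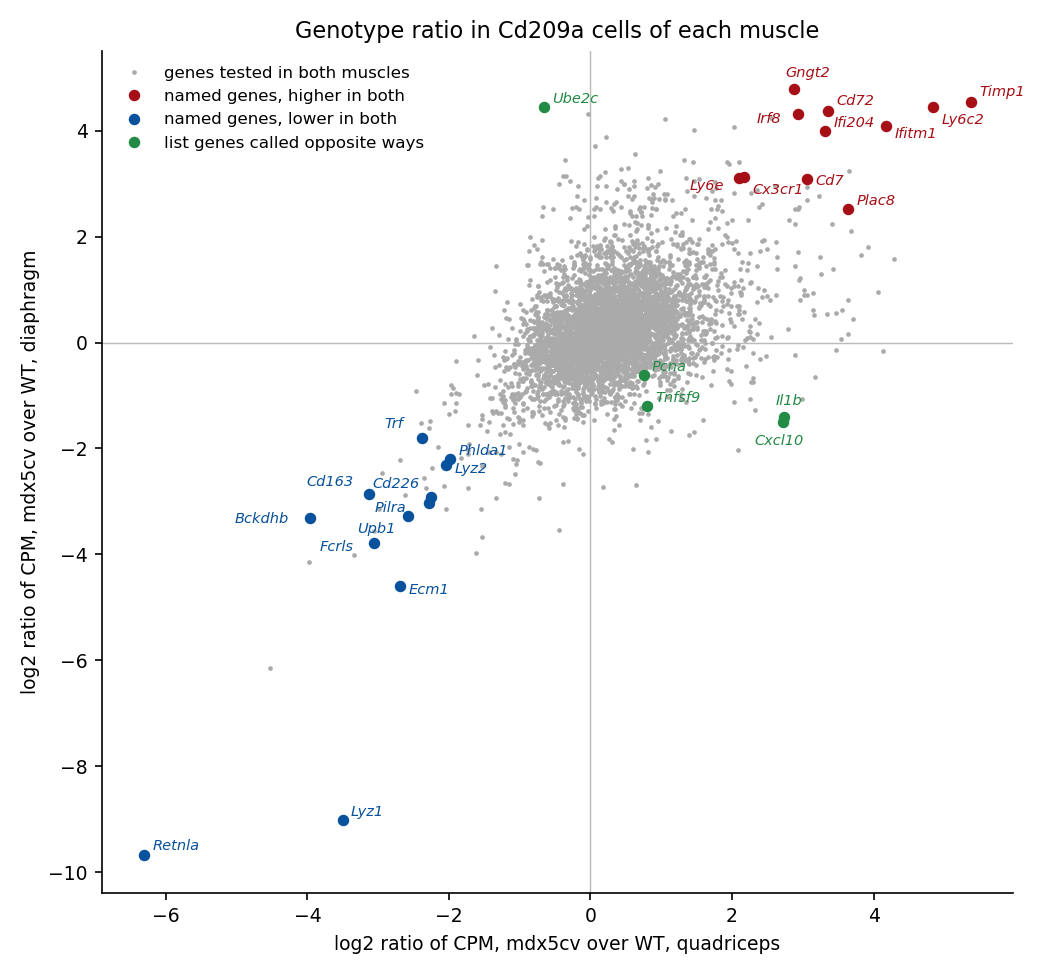
Log2 ratio of CPM in mdx5cv over WT Cd209a cells in quadriceps (x axis) against diaphragm (y axis), 1 point per gene tested in both. The named genes of each direction lie in the corner where both ratios have the same sign, led by Retnla at the bottom left, and Il1b and Cxcl10 lie at the lower right.

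Retnla, Lyz2 and Cd163 were among the 12 genes with the firmest falls in mdx5cv, that is those whose interval lay farthest below 1 in both muscles. Retnla encodes RELMalpha, a secreted protein induced by interleukin-4 and interleukin-13. It stood at 2790.3 CPM in WT and 35.1 CPM in mdx5cv quadriceps and 2132 CPM in WT and 2.62 CPM in mdx5cv diaphragm. It was thus 79.4-fold lower (62.6 to 102) in mdx5cv than in WT quadriceps, and 814-fold lower (316 to 2999.7) in diaphragm. In WT the Retnla UMIs were concentrated, since 1 cell held 24.1% of them in quadriceps and 29.7% in diaphragm, and only 12.3% and 24.4% of thinned WT cells had one. In fibro/adipogenic progenitors of these libraries 1.71% and 0.246% had one.

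The lysozyme genes, which encode enzymes that cut bacterial cell walls, were also lower in mdx5cv. Lyz2 stood at 10829.9 CPM in WT and 2634 CPM in mdx5cv quadriceps and 9878 CPM in WT and 1987 CPM in mdx5cv diaphragm, a value 4.11-fold lower (3.94 to 4.28) in mdx5cv in quadriceps and 4.97-fold lower (4.71 to 5.24) in diaphragm. All thinned cells of WT quadriceps and 95.1% of WT diaphragm had a Lyz2 UMI, against 67.8% and 64.7% in mdx5cv. Its near-identical copy Lyz1 stood at 256, 22.6, 679.6 and 1.31 CPM in the order WT quadriceps, mdx5cv quadriceps, WT diaphragm and mdx5cv diaphragm, with 69.6% and 37.5% of the WT UMIs in 1 cell. The sources used here do not give how tags that fit both copies were assigned, which also holds for Mgl2 and Clec10a, the Cd209 family, and Ifit3 and its copy.

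Cd163, the scavenger receptor for haemoglobin, was lower in mdx5cv in both muscles. It stood at 239 CPM in WT and 27.4 CPM in mdx5cv quadriceps and 185 CPM in WT and 25.5 CPM in mdx5cv diaphragm, 8.73-fold lower (6.17 to 12.4) in quadriceps and 7.26-fold lower (4.66 to 11.4) in diaphragm. A Cd163 UMI was found in 35.6%, 5.22%, 39% and 5.6% of thinned cells, and in 0% to 0.0526% of fibro/adipogenic progenitors. The shift therefore ran over many cells, unlike that of Retnla. Ecm1, a secreted matrix protein, fell from 83.5 CPM to 13 CPM in quadriceps and from 158 CPM to 6.54 CPM in diaphragm. Trf encodes the iron carrier transferrin and stood at 880.0, 169, 726 and 207 CPM, with mdx5cv 5.21-fold lower (4.46 to 6.08) in quadriceps and 3.51-fold lower (2.92 to 4.22) in diaphragm.

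The other genes of the 12 with the firmest falls were Fcrls, Bckdhb, Upb1, Phlda1, Pilra and Cd226. Fcrls, an Fc receptor-like gene of resident phagocytes, stood at 365, 43.8, 595 and 43.2 CPM. Bckdhb, an enzyme of branched-chain amino acid breakdown, stood at 150.4, 9.63, 85 and 8.51 CPM, and Upb1, an enzyme of pyrimidine breakdown, at 156, 26, 197 and 20.3 CPM. Phlda1, an early stress-response gene, stood at 457, 116, 911 and 198 CPM. Both mdx5cv values were below both WT values for each of these 4 genes. Pilra, an inhibitory receptor of myeloid cells, fell by 2.29 and 3.04 on the log2 scale, and Cd226, an adhesion receptor best known on T and NK cells, by 2.25 and 2.91.

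Ifitm1 and Cd7 led the 12 genes with the firmest rises in mdx5cv, and both belong to the list of 13 cDC2 identity genes. Ifitm1, a membrane protein induced by interferon, stood at 0 CPM in WT and 151 CPM in mdx5cv quadriceps and 7.72 CPM in WT and 132 CPM in mdx5cv diaphragm. It was 18-fold higher in mdx5cv quadriceps, counted against a floor of 3 UMIs in WT, and 17-fold higher (4.65 to 142) in mdx5cv diaphragm. Cd7, an immunoglobulin-family receptor of lymphocytes and of some dendritic cells, stood at 33.4 CPM in WT and 278 CPM in mdx5cv quadriceps and 34.8 CPM in WT and 296 CPM in mdx5cv diaphragm. It was 8.33-fold higher (4.73 to 16.2) in quadriceps and 8.51-fold higher (4.44 to 18.7) in diaphragm, and 88.9% of its WT diaphragm UMIs came from 1 cell. After thinning, 4.11%, 25.8%, 4.88% and 27.6% of the cells had a Cd7 UMI, against 0% to 0.0822% of fibro/adipogenic progenitors. Both mdx5cv libraries held more Cd7 than both WT libraries.

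Of the 13 cDC2 identity genes, none of them used in the rule, 7 rose and 1 fell in mdx5cv quadriceps. In diaphragm the same list gave 7 higher and 3 lower, where 17.5% and 10.7% of all genes tested were higher and 6.92% and 6.77% lower. The calls of Sirpa and Napsa in diaphragm and of Tnfsf9 in quadriceps were lost relative to the median gene. That of Napsa was also lost without cells with more than 1 UMI of Fcgr1, Mertk, Adgre1 and Ly6c2 together. The Tnfsf9 call was also lost with a mean over cells. The medians of the list were 0.62 and 0.47 above that of all genes on the log2 scale. Sirpa, the inhibitory receptor by which cDC2 are sorted, was 1.99-fold higher (1.48 to 2.74) in quadriceps and 1.65-fold higher (1.12 to 2.53) in diaphragm. Kmo, an enzyme of tryptophan breakdown, stood at 58.5, 121, 19.3 and 126 CPM, and Cbfa2t3, a repressor needed early in dendritic cell development, at 226, 415, 143 and 385 CPM. Both were higher in mdx5cv in both muscles. Itgax, which encodes the dendritic cell integrin CD11c, was 2.44-fold higher (1.7 to 3.6) in quadriceps, whereas in diaphragm it stood at 201 CPM in WT and 184 CPM in mdx5cv diaphragm. Mgl2 was 3.74-fold lower (3.42 to 4.08) in quadriceps and 2.21-fold lower (1.97 to 2.47) in diaphragm.

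The remaining 10 of the 12 included the monocyte markers Plac8 and Ly6c2. Plac8, a gene of monocytes and of dendritic cell precursors, stood at 30.6, 383, 73.4 and 419 CPM, 12.5-fold higher (6.94 to 25.1) in mdx5cv quadriceps and 5.71-fold higher (3.62 to 9.54) in diaphragm. Ly6c2, which marks inflammatory monocytes, stood at 2.78, 79.9, 3.86 and 83.8 CPM. Cd209a cells with more than 1 UMI of Fcgr1, Mertk, Adgre1 and Ly6c2 together, called cells with macrophage or monocyte transcripts below, were also left out in turn. The Ly6c2 log2 ratios were then 1.32 and 0.78 in place of 4.84 and 4.44 and the calls were lost, although Ly6c2 itself helped to choose those cells. Chil3, another monocyte gene, was called higher in quadriceps and had a log2 ratio of -2.26 there without those cells. WT quadriceps was counted at the floor of 3 UMIs for Chil3, so the value of -2.26 sets few UMIs against that floor. The other monocyte markers went both ways, with Plac8 and Ms4a4c higher and F13a1 and Fn1 lower in both muscles.

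Cd72, Irf8 and Timp1 were at or near 0 UMIs in WT. Cd72, a co-receptor of B cells and myeloid cells, stood at 0, 85.2, 3.86 and 79.8 CPM. Irf8 was 7.66-fold higher in quadriceps against the floor, and in diaphragm 19.8-fold higher (3.49 to 789.6), where WT had 1 UMI. Timp1, an inhibitor of matrix proteases, rose from 1 UMI in each WT library to 116 CPM and 89.6 CPM, and 13.2% and 16.5% of its mdx5cv UMIs were estimated to come from outside the cells. Without the cell richest in the gene in each library, the diaphragm log2 ratios were 2.69 for Cd72, 2.53 for Irf8 and 2.65 for Timp1. They replaced 4.37, 4.31 and 4.54, and all were still called. Leaving out the cell with the 1 WT UMI put WT diaphragm at the floor of 3 UMIs, which by itself lowers these ratios. Ly6e, an interferon-induced surface protein, stood at 156 CPM in WT and 670.0 CPM in mdx5cv quadriceps and 73.4 CPM in WT and 635 CPM in mdx5cv diaphragm. Gngt2, Ifi204 and Cx3cr1 were also among the 12, with Cx3cr1, the fractalkine receptor, at 27.8, 126, 7.72 and 67.4 CPM.

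Genes of the interferon response were higher in mdx5cv. In quadriceps 13 of 19 tested were higher and none lower, in diaphragm 13 of 18 higher and 1 lower, where 17.5% and 10.7% of all genes tested were higher. The list's median log2 ratio was 1.32 in quadriceps and 1.60 in diaphragm, or 1.06 and 1.40 above that of all genes. Monocytes and macrophages carry the same genes. Without the Cd209a cells that held macrophage or monocyte transcripts, the counts were 6 risen and 1 fallen in quadriceps, and 10 risen and none fallen in diaphragm. The part of those cells in the result was not tested further.

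Irf7, the factor that amplifies interferon production, stood at 8.35 CPM in WT and 49.1 CPM in mdx5cv quadriceps and 3.86 CPM in WT and 73.3 CPM in mdx5cv diaphragm, 5.88-fold higher (1.95 to 29) in quadriceps and 19-fold higher (3.34 to 756) in diaphragm, with 3 and 1 UMIs in WT. Oasl2, an interferon-induced antiviral gene, stood at 30.6, 76.5, 7.72 and 84.4 CPM. Ifit1, whose product binds foreign RNA, stood at 13.9, 35.6, 15.4 and 57.6 CPM, and Ifit3, its partner, at 30.6, 53.4, 0 and 87.7 CPM. In WT quadriceps 90.9% of the Ifit3 UMIs came from 1 cell, and in WT diaphragm all 4 Ifit1 UMIs did. Isg15, a ubiquitin-like modifier, was 4.54-fold higher (2.56 to 8.87) in quadriceps, while in diaphragm it stood at 197 CPM in WT and 205 CPM in mdx5cv diaphragm. Rsad2, which encodes the antiviral enzyme viperin, was 5.62-fold higher (2.14 to 20.9) in quadriceps and stood at 30.9 CPM in WT and 56.9 CPM in mdx5cv diaphragm, where 87.5% of the WT UMIs came from 1 cell. Without cells holding macrophage or monocyte transcripts its quadriceps log2 ratio was 1.06 in place of 2.49, and the call was lost, as was that of Ifit1 in quadriceps. The Irf7 log2 ratio was then 1.83 in place of 2.55 in quadriceps, and 2.48 in place of 4.25 in diaphragm without the cell richest in it, with both calls still made. The diaphragm value sets WT, left without its 1 UMI, at the floor of 3 UMIs, which by itself lowers the ratio. The diaphragm log2 ratios of Ifit3 and Oasl2 were 1.84 and 2.80 without cells holding macrophage or monocyte transcripts, and both were still called.

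Ifit1 and Ifit3 are shown with the 250 bases before their start sites (RefSeq, GRCm38.p6) because both hold the interferon-stimulated response element, the letters through which interferon switches on its target genes. The element was searched on both strands as GAAA, 2 bases of any kind and GAAA, and is in capitals. These windows were chosen among those with a match. The windows are chr19:34640639-34640888 and chr19:34583279-34583528, both on the plus strand, and each holds 2 matches.
Ifit1: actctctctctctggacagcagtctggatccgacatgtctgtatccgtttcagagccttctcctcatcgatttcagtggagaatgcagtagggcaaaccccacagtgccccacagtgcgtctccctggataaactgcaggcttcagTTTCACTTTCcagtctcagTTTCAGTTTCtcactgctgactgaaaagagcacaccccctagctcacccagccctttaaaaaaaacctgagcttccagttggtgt
Ifit3: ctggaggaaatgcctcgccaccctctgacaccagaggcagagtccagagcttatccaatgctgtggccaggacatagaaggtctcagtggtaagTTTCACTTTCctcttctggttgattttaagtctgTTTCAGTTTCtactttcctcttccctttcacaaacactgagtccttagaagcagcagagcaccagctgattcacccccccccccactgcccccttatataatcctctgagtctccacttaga
The matches begin 104 and 85 bases before the start of Ifit1 and 156 and 122 bases before that of Ifit3. Among 18 promoters of the interferon list with a window, 10 hold the element, which include Isg15, Rsad2, Cxcl10 and Bst2. It is present in 2.98% of 32851 promoter windows.

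The MHC class I pathway, which loads peptides for CD8 T cells, had 5 genes higher and none lower of 12 tested in quadriceps and 5 of 11 in diaphragm, where 17.5% and 10.7% of all genes tested were higher. Relative to the median gene only 2 stayed called higher in each muscle, with 1 lower in diaphragm, and without cells holding macrophage or monocyte transcripts 3 and 1 were higher. Tap1, a subunit of the peptide transporter, stood at 27.8, 112, 27 and 100.1 CPM, 4.01-fold higher (2.14 to 8.47) in quadriceps and 3.7-fold higher (1.75 to 9.37) in diaphragm. Of 10 class II pathway genes 2 were higher and 1 lower in quadriceps, close to the 17.5% and 6.92% of all genes, and 3 were higher and none lower in diaphragm, against 10.7% and 6.77%. Ciita, the master regulator of class II genes, stood at 175, 296, 65.6 and 232 CPM, and its call in quadriceps was lost relative to the median gene. H2-Eb1, a class II chain not used in the rule, stood at 11036, 10647, 11159.7 and 9656 CPM and was called in neither muscle.

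Lectin and Fc receptors by which these cells take up antigen were lower in several cases. Of 10 C-type lectins tested in each muscle, 4 were lower and 1 higher, where 6.92% and 6.77% of all genes were lower, with Mgl2, Clec4b1 and Cd209d lower in both and Clec4n, which encodes Dectin-2, higher in both. The Clec4n log2 ratio in quadriceps was 1.32 without cells holding macrophage or monocyte transcripts, in place of 3.66. In diaphragm it was 1.35 without the cell richest in it, in place of 3.25, and the call there was lost with a mean over cells. Without the richest cells WT diaphragm stood at the floor of 3 UMIs, which by itself lowers the ratio. Clec4b1, a receptor gene of dendritic cells, stood at 833, 353, 676 and 334 CPM, and Cd209d at 295, 140.1, 263 and 105 CPM. Fcgr2b and Fcgr3, the inhibitory and an activating receptor for IgG, stood at 526, 278, 402 and 211 CPM and 175, 66.9, 139 and 56.9 CPM, and both were lower in mdx5cv in both muscles. Fcgr1, the high-affinity IgG receptor, which marks macrophages and inflammatory dendritic cells, was 4.08-fold higher (1.7 to 12.8) in quadriceps and 16.8-fold higher (2.94 to 669) in diaphragm, with 1 UMI in WT diaphragm. Both Fcgr1 calls were lost without cells holding macrophage or monocyte transcripts, which Fcgr1 itself helped to choose, and without the cell richest in it the diaphragm log2 ratio was 2.39 in place of 4.07. In that last value too WT diaphragm stood at the floor of 3 UMIs.

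A list of 11 S100, annexin and cytoskeletal genes had 5 that fell and none that rose in quadriceps. In diaphragm 5 fell and 1 rose. Of all genes tested 6.92% in quadriceps and 6.77% in diaphragm were lower, and 17.5% and 10.7% higher. The medians relative to that of all genes were -0.79 and -0.74. S100a10, Anxa2, Anxa1, Crip1 and Ahnak were lower in both muscles, of which the Ahnak calls were lost without the cell richest in it. S100a10 and its partner Anxa2 together form a membrane scaffold. S100a10 stood at 3422 CPM in WT and 1183 CPM in mdx5cv quadriceps and 3545 CPM in WT and 1309.9 CPM in mdx5cv diaphragm, and Anxa2 at 1988 CPM in WT and 927 CPM in mdx5cv quadriceps and 2259 CPM in WT and 1063 CPM in mdx5cv diaphragm. Anxa1, an anti-inflammatory annexin, stood at 696, 301, 568 and 268 CPM. For S100a10, Anxa2 and Anxa1 both mdx5cv values lay below both WT values.

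Of 13 cytokine receptor genes tested in each muscle, 4 were higher and 1 lower in quadriceps, against 17.5% and 6.92% of all genes, and 1 was higher and 3 lower in diaphragm, against 10.7% and 6.77%. Relative to the median gene the quadriceps counts were 2 and 3, and without cells holding macrophage or monocyte transcripts 1 of 13 was lower in diaphragm. Il4ra, the shared receptor chain for interleukin-4 and interleukin-13, was 12.8-fold higher (3.48 to 107) in mdx5cv quadriceps and 4.28-fold higher (1.62 to 16) in diaphragm. Il1rl1, the receptor for interleukin-33, stood at 142, 38, 61.8 and 32.1 CPM, 3.74-fold lower (2.57 to 5.38) and 1.93-fold lower (1.02 to 3.45). Its diaphragm call was lost under 5 settings, with a log2 ratio of -0.42 in place of -0.95 without cells holding macrophage or monocyte transcripts. Osm, a cytokine of the interleukin-6 family, stood at 19.5, 53.9, 3.86 and 62.2 CPM and was higher in mdx5cv in both muscles, with a diaphragm log2 ratio of 2.28 in place of 4.01 without the cell richest in it. The value of 2.28 sets WT diaphragm at the floor of 3 UMIs, which by itself lowers the ratio. Aldh1a2, an enzyme that makes retinoic acid, stood at 25.1, 5.29, 27 and 5.23 CPM and was called lower in both, but in neither without the cell richest in it, where the log2 ratios were -2.17 and -1.75 in place of -2.24 and -2.37.

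Of 20 lysosomal and lipid-handling genes 11 were higher and 3 lower in quadriceps, against 17.5% and 6.92% of all genes, or 7 and 4 relative to the median gene. In diaphragm 3 of 18 were higher and 2 lower, against 10.7% and 6.77%. Macrophage markers stood beside this with 6 of 9 tested higher and 1 lower in quadriceps and a median log2 ratio of 1.26, and with 2 of 7 higher, 3 lower and a median of -0.20 in diaphragm. Without cells holding macrophage or monocyte transcripts the lysosomal list had 8 higher and 3 lower in quadriceps, where Ctsb, Ctsl and Plin2 lost their calls, and 1 higher and 3 lower in diaphragm. Several members of that list, among them Apoe, Ctsl, Cd63 and Fabp4, had a large estimated share from outside the cells. Of 13 oxidative phosphorylation genes none was called in quadriceps, and in diaphragm 1 rose and 1 fell. Of 13 cell cycle genes 5 were higher and 1 lower in quadriceps, and 2 were higher relative to the median gene. In diaphragm 4 of 11 were higher and 2, Rrm2 and Pcna, lower. Without the cell richest in each gene none of 9 tested was lower in diaphragm and 6 were higher, with Rrm2 at a log2 ratio of 1.44 in place of -1.75.

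**Figure D4:**
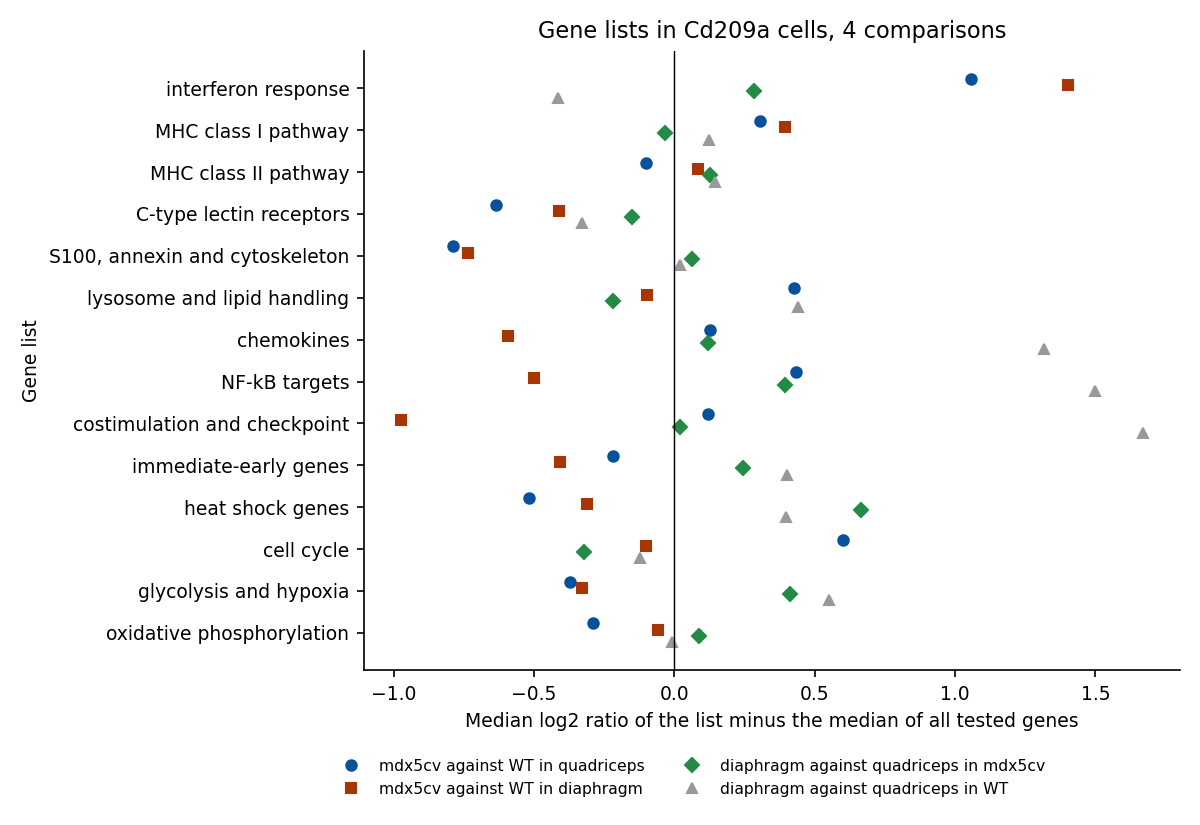
Median log2 ratio of each of 14 gene lists minus the median of all genes tested (x axis), for the genotype comparison in each muscle and the muscle comparison in each genotype. The interferon list lies at 1.06 and 1.40 for genotype, the S100 and annexin list at -0.79 and -0.74, and the NF-kB list at 1.5 for diaphragm against quadriceps in WT.

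Several of these changes were set beside those of macrophages in the same libraries, as the ratio of the mdx5cv to WT ratios. For Mgl2 quadriceps gave 6.85 (6.02 to 7.8) and diaphragm 5.97 (5.17 to 6.89), so Mgl2 fell further in macrophages. Cd209d behaved alike, at 13.5 (7.15 to 25.5) and 6.33 (2.52 to 15.9), and so did Cd163, at 2.46 (1.66 to 3.65) and 4.66 (2.9 to 7.51). The opposite held for Fcrls, at 0.183 (0.136 to 0.245) and 0.108 (0.0787 to 0.147), for Bckdhb, at 0.0594 (0.0134 to 0.264) and 0.0957 (0.0197 to 0.466), and for Lyz2, at 0.427 (0.408 to 0.446) and 0.303 (0.286 to 0.32), which fell further in Cd209a cells. For Anxa1 it was 0.328 (0.269 to 0.40) and 0.482 (0.381 to 0.61), and for Cbfa2t3 2.58 (1.7 to 3.93) and 2.79 (1.63 to 4.78). Each of these intervals excluded 1.

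Between muscles, Cd209a cells of the diaphragm held more transcripts of NF-kB targets, genes switched on when dendritic cells are activated. In mdx5cv 2.36% of 5582 genes tested were higher and 10.1% lower in diaphragm than in quadriceps, or 272 and 291 genes relative to the median gene in place of 132 and 565. In WT 5.81% of 5045 were higher and 5.69% lower. Of 4628 genes tested in both, 34 were higher in diaphragm in both genotypes and 21 lower in both. Of 14 NF-kB targets, 10 were higher and none lower in WT, and 5 were higher and 1 lower in mdx5cv. Relative to the median gene 10 were also counted in WT.

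Il1b, which encodes the inflammatory cytokine interleukin-1beta and was not in that list, ranked first among the genes higher in diaphragm in both genotypes. It stood at 39 CPM in WT and 259.9 CPM in mdx5cv quadriceps and 1780.2 CPM in WT and 668 CPM in mdx5cv diaphragm, 45.7-fold higher (26.9 to 84.2) in diaphragm in WT and 2.57-fold higher (2.31 to 2.86) in mdx5cv. After thinning, 5.48%, 18%, 51.2% and 33.2% of the cells had an Il1b UMI, against 0% to 0.452% of fibro/adipogenic progenitors. Both diaphragm values lay above both quadriceps values. Nfkbia encodes IkBalpha, the inhibitor that NF-kB itself induces. It stood at 407 CPM in WT and 404 CPM in mdx5cv quadriceps and 1074 CPM in WT and 944 CPM in mdx5cv diaphragm, 2.64-fold higher (2.15 to 3.25) in WT and 2.34-fold higher (2.14 to 2.55) in mdx5cv, and 35.6%, 34.8%, 73.2% and 60.8% of thinned cells had a UMI.

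Cd83, which stabilises MHC class II and CD86 on maturing dendritic cells, stood at 131 CPM in WT and 166 CPM in mdx5cv quadriceps and 1054 CPM in WT and 334 CPM in mdx5cv diaphragm. It was 8.05-fold higher (5.89 to 11.2) in diaphragm in WT and 2.02-fold higher (1.76 to 2.32) in mdx5cv. Cxcl2, a chemokine for neutrophils, stood at 55.7 CPM in WT and 42.4 CPM in mdx5cv quadriceps and 579 CPM in WT and 90.9 CPM in mdx5cv diaphragm. In WT quadriceps 80.0% of its UMIs came from 1 cell, and in mdx5cv quadriceps 27.2% were estimated to come from outside the cells. Icam1, an adhesion molecule for T cells, stood at 50.1, 42.8, 212 and 87.7 CPM, Gadd45b, a stress-response gene, at 153, 152, 537 and 325 CPM, Ccrl2, a chemerin-binding receptor, at 131, 89.5, 359 and 191 CPM, and the survival gene Bcl2a1b at 103, 60.6, 494 and 120.4 CPM. Both diaphragm values exceeded both quadriceps values for each of these genes.

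The 250 bases before Nfkbia (chr12:55492648-55492897, minus strand) and Cxcl2 (chr5:90903649-90903898, plus strand; both RefSeq, GRCm38.p6) are shown because each holds a match to NF-kB letters, searched as GGGA, 1 base of any kind and TTTCC. The match was searched on both strands and is in capitals. These windows too were chosen among those with a match.
Nfkbia: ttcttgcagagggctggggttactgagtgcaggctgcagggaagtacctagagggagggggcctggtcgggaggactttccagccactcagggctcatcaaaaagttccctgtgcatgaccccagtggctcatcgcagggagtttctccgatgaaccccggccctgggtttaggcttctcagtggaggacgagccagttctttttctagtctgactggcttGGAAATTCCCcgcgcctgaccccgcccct
Cxcl2: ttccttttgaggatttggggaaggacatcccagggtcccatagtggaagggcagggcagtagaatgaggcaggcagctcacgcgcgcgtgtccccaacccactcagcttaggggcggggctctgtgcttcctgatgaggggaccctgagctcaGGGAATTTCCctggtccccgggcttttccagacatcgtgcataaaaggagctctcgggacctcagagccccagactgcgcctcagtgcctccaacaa
Each window holds 1 match, and that of Nfkbia begins 29 bases before the start. The letters were found in 2 of 11 windows of the NF-kB list and in 0.356% of 32851 windows.

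Costimulatory genes followed in WT, where 4 were higher and 1 lower in diaphragm of 8 tested, among them Cd80 and Cd86, the ligands of CD28 on T cells. Cd86 stood at 39 CPM in WT and 47.7 CPM in mdx5cv quadriceps and 112 CPM in WT and 51.7 CPM in mdx5cv diaphragm. In mdx5cv only Cd83 of 7 tested was called. Chemokine genes were higher in 6 of 10 in WT diaphragm and lower in none, and in mdx5cv 3 were higher and 1 lower of 11. Of all genes tested 5.81% were higher and 5.69% lower in WT, and 2.36% and 10.1% in mdx5cv. Of 4 tested sensors 3, Tlr2, Cd14 and Nlrp3, were higher in WT diaphragm, where 5.81% of all genes were, and the Nlrp3 log2 ratio was 1.21 in place of 4.06 without the cell richest in it, with its call lost. WT quadriceps then stood at the floor of 3 UMIs, which by itself lowers the ratio. The genotype and muscle comparisons share libraries, so the lower values of Cd83, Cd80, Cd86 and Cxcl2 in mdx5cv diaphragm against WT rest on the same 41 WT diaphragm cells.

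Hmgb2 led the genes that were lower in diaphragm in both genotypes. Hmgb2, a chromatin protein of dividing cells, stood at 304 CPM in WT and 466 CPM in mdx5cv quadriceps and 131 CPM in WT and 254 CPM in mdx5cv diaphragm. Klrb1b, an inhibitory lectin, stood at 128, 181, 57.9 and 109.9 CPM, Cd300a, an inhibitory receptor for membrane lipids, at 195, 303, 100.4 and 219.8 CPM, and Cd48, an adhesion ligand, at 423, 265, 247 and 195 CPM. Within each genotype the diaphragm value was the lower for all 4. Frg1, Itpripl2, Tacc1 and Snhg3 completed the 8 named. In mdx5cv the difference of Cd300a, Cd48 and Tacc1 was under 1.5-fold, and so was that of Klrb1b, Frg1 and Itpripl2 relative to the median gene.

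In mdx5cv alone, Ccl17, a chemokine that draws T cells and is made by cDC2, was 2.79-fold higher (2.03 to 3.87) in diaphragm. It stood at 106 CPM in WT and 28.4 CPM in mdx5cv quadriceps and 100.4 CPM in WT and 79.2 CPM in mdx5cv diaphragm, and the cell richest in it held 25.6% to 42.3% of its UMIs in each library. Its 250 bases upstream (chr8:94810203-94810452, plus strand) and those of Retnla (chr16:48842359-48842608, plus strand; both RefSeq, GRCm38.p6) are shown since each holds 1 match, in capitals, to TTC, 4 bases of any kind and GAA, on either strand, letters of the kind bound by STAT6, the factor below the interleukin-4 receptor.
Ccl17: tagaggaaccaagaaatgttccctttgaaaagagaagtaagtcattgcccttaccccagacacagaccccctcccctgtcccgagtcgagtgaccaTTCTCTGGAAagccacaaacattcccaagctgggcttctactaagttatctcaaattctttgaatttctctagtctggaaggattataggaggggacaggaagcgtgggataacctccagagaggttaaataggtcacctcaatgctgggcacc
Retnla: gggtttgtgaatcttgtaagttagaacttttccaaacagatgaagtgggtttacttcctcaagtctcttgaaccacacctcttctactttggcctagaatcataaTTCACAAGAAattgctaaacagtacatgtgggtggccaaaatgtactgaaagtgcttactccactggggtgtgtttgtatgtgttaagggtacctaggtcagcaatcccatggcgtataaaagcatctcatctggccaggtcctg
The letters are present in 3 of 10 windows of the interleukin-4 and interleukin-13 list and in 5.85% of 32851 windows. The 2 windows shown were chosen among those with a match. The expression of the list went both ways. Of 7 genes tested in each muscle, 3 were higher and 2 lower in mdx5cv quadriceps, against 17.5% and 6.92% of all genes. In mdx5cv diaphragm 1 was higher and 2 lower, against 10.7% and 6.77%. Between the mdx5cv muscles, 2 of 8 were higher and 2 lower in diaphragm, against 2.36% and 10.1%. Retnla was lower in mdx5cv diaphragm than in mdx5cv quadriceps, with 4 against 73 UMIs, 46.6% of the latter in 1 cell. Its log2 ratio of -3.75 there was 0.04 at a mitochondrial limit of 5%.

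For several other genes with large differences between the mdx5cv muscles, 1 cell held most of the UMIs in the higher library. The cell cycle inhibitor gene Cdkn1c stood at 14.4 CPM in mdx5cv quadriceps and 68.7 CPM in mdx5cv diaphragm, with 98.1% of the diaphragm UMIs in 1 cell, and its log2 ratio turned from 2.25 to -2.73 without the cell richest in it. The smooth muscle actin gene Acta2 stood at 28.4 CPM in mdx5cv quadriceps and 85.1 CPM in mdx5cv diaphragm, with 58.5% in 1 cell. Acta2 was still called without the cell richest in it. Its log2 ratio of 1.58 was lowest, at 0.96, with a mitochondrial limit of 5%. The neutrophil genes S100a8 and S100a9 had 151 and 139 UMIs in mdx5cv quadriceps and none in the other libraries, and 73.5% and 64.7% of these came from 1 cell. AA467197 was spread over more cells, at 21.2 CPM in mdx5cv quadriceps and 73.9 CPM in mdx5cv diaphragm. Pcna, the sliding clamp of DNA replication, stood at 188 CPM in mdx5cv quadriceps and 85.7 CPM in mdx5cv diaphragm, and Dut, which keeps uracil out of DNA, at 77.5 CPM in mdx5cv quadriceps and 32.7 CPM in mdx5cv diaphragm, both lower in diaphragm.

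Heat shock genes, which are induced by protein damage and by cell handling, were higher in diaphragm in 4 of 10 in mdx5cv and in 3 of 10 in WT, and lower in none. Of all genes tested 2.36% were higher in diaphragm in mdx5cv and 5.81% in WT. Hsp90ab1, a chaperone, stood at 2233 CPM in WT and 2023 CPM in mdx5cv quadriceps and 3827 CPM in WT and 3181 CPM in mdx5cv diaphragm. Hspa1b, the stress-inducible HSP70, stood at 5848, 7801, 4684 and 7427 CPM, so it was abundant in every library. The handling of the cells was not recorded per library in the labels, and its part in these values was not tested.

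**Figure D5:**
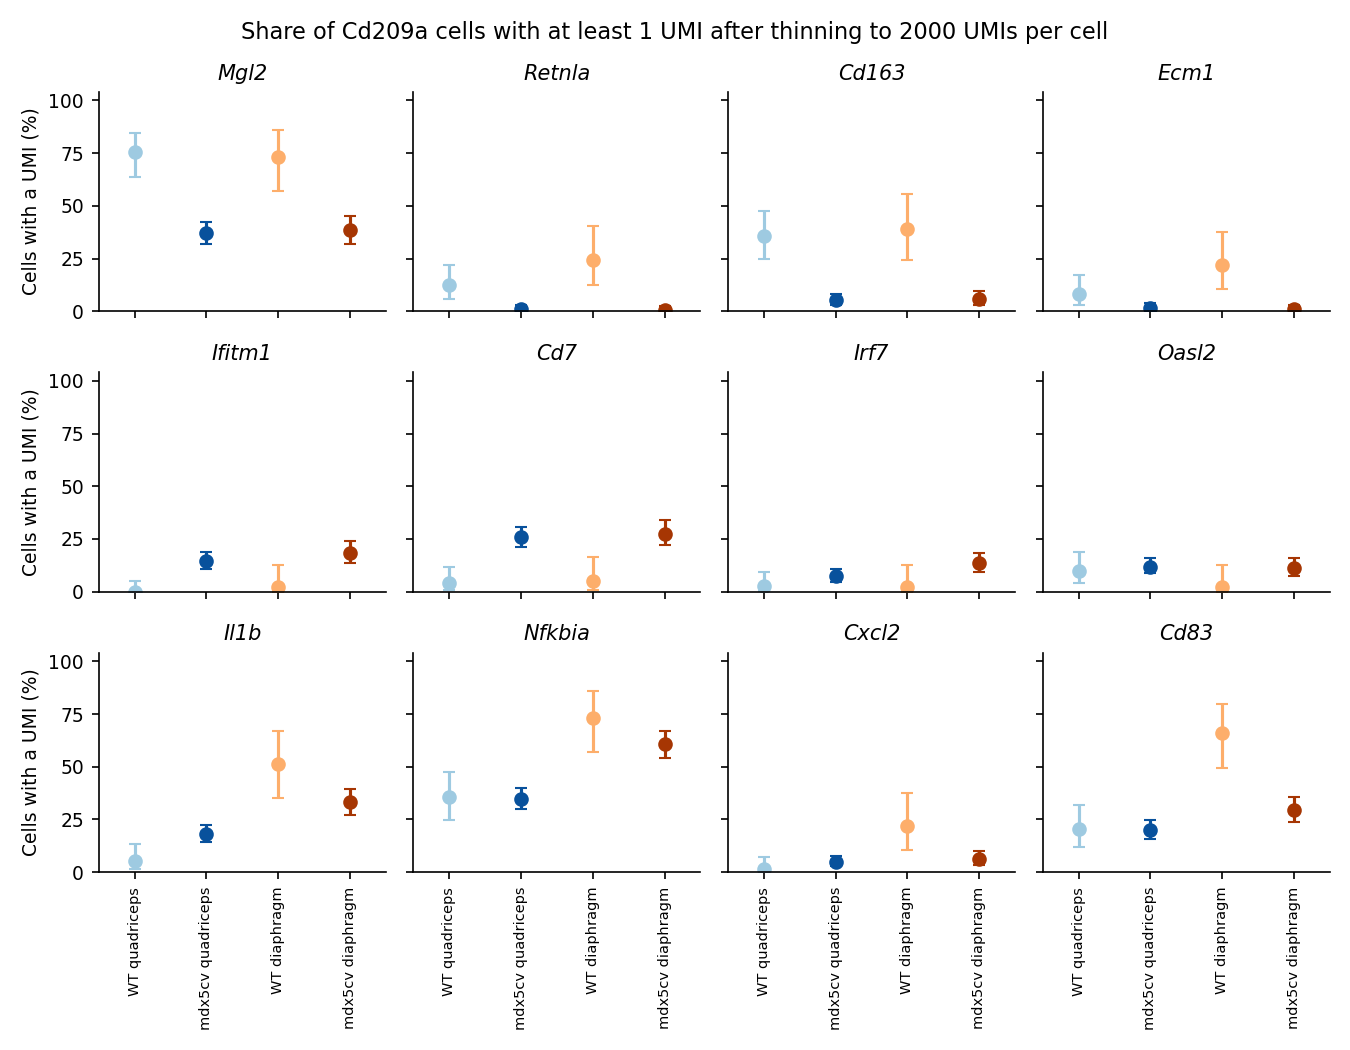
Share of Cd209a cells (percent) with at least 1 UMI of each gene after thinning every cell to 2000 UMIs, for the 4 libraries, with exact binomial 95% intervals as bars. Mgl2 lies at 75.3% and 73.2% in WT and at 37.1% and 38.4% in mdx5cv, and Nfkbia at 73.2% and 60.8% in diaphragm and at 35.6% and 34.8% in quadriceps.

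Among the Cd209a cells of the mdx5cv libraries, the most uneven gene was Lyz2, whose variance over mean in thinned cells was 17.5 in quadriceps and 24.0 in diaphragm, where counts with no variation between cells would give about 1. The chemokine genes Ccl4, Ccl17, Cxcl10, Ccl5 and Ccl2 were among the 15 most uneven genes. Ccl4, a chemokine for monocytes and T cells, had a UMI in 29.6% and 32.3% of thinned mdx5cv cells, and Ccl5 in 5.51% and 3.45%. Il1b, Rsad2, the stress genes Hspb1 and Hspa1b, and the class II gene H2-Eb1 were also among them. The remaining 4, Tmsb4x, Malat1, Fth1 and Actb, are abundant in most cells.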

How the data were processed

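The deposited matrices hold UMI counts per gene and barcode, without a filter on cells, for all barcodes. Per the submitters' processing notes the authors made these counts by running Cell Ranger (version 5.0.0) against mm10. The matrix file headers name another version, and the annotation is not stated. Cd209a cells and the cells set beside them were chosen by fixed UMI limits. All members, lists and rules here were chosen with earlier results of these data known.

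UMIs were summed per library, and ratios of CPM were given exact conditional intervals at the 95% level, shares exact binomial (Clopper-Pearson) ones. A gene was tested at 20 CPM in 1 library and 10 UMIs in both, and called from a 1.5-fold difference whose interval left out 1. A count of 0 was set to a floor of 3 UMIs for the ratio, while its interval was computed from the count itself. Genes used in the rule were left out of all tests. To be named, a gene needed 50 CPM in 1 library of each of 2 parallel comparisons and intervals on the same side of 1 in both. The 12 with bounds farthest from 1 were taken each way for genotype and 8 each way for muscle; for mdx5cv alone, 8 each way. Mitochondrial, ribosomal, haemoglobin, predicted, Riken, immunoglobulin, Xist and Y-linked genes were not eligible, nor any gene whose ambient estimate passed 20% in the library with the higher level. The 15 most uneven genes were ranked by the lower of their 2 values. Not every gene the rules chose is reported here. Genes that went opposite ways were chosen after their values were seen. List genes came from 39 lists of 396 genes, 394 of them in the files.

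Depth was 1107 to 24262 UMIs per Cd209a cell. Detection was compared after thinning to 2000 UMIs. Scrublet called 0, 0, 0 and 293 barcodes doublets and so did not work in 3 libraries; removing the highest 6% of scores was an alternative. Recovery was tested on simulated counts drawn with counting error alone, so it does not cover variation between cells or libraries. Software was matplotlib 3.10.9, scanpy 1.11.5, pandas 2.3.3, scipy 1.17.1 and numpy 2.4.6 under Python 3.11.15. Positions are 1-based, from GENCODE on GRCm38, promoters from RefSeq.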

Additional observations from a re-analysis of the deposited data

Results flagged for a closer look

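In Cd209a cells 20 genes were called higher in mdx5cv quadriceps and lower in mdx5cv diaphragm, and 3 the reverse. Of these the 5 that belong to a gene list are given as values, since the difference itself was not tested across animals. Each value below is the mdx5cv to WT ratio in diaphragm divided by that in quadriceps. For Il1b, the cytokine interleukin-1beta, it was 0.0563 (0.0327 to 0.0968), with 39 CPM in WT and 259.9 CPM in mdx5cv quadriceps and 1780.2 CPM in WT and 668 CPM in mdx5cv diaphragm. The WT diaphragm value stood far above the other WT value. For Cxcl10, an interferon-induced chemokine, it was 0.0533 (0.0211 to 0.135), with 13.9, 91.9, 297 and 105 CPM in the same order. Of the WT diaphragm Cxcl10 UMIs 67.5% came from 1 cell, and without the richest cell of each library the log2 ratio in diaphragm was -0.27 and no longer called.

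For Tnfsf9, the ligand of the costimulator 4-1BB, it was 0.25 (0.162 to 0.385), with 100.3, 174, 301 and 131 CPM. For Pcna, the sliding clamp of DNA replication, it was 0.387 (0.235 to 0.638), with 111, 188, 131 and 85.7 CPM, and the diaphragm log2 ratio was -0.15 without the richest cells. For Ube2c, a ubiquitin enzyme of mitosis, it was 34.5 (4.72 to 253), with 148, 93.4, 3.86 and 84.4 CPM. Its WT quadriceps UMIs came to 67.9% from 1 cell, and the quadriceps log2 ratio turned to 0.69 without the richest cells.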

How the results depend on the processing

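The share of Cd209a cells moved with the limits. In WT quadriceps it was 2.865% at a minimum of 2000 UMIs and 3.13% at a mitochondrial limit of 5%, which gave 0.7478% in WT diaphragm, 8.098% in mdx5cv quadriceps and 5.249% in mdx5cv diaphragm. Without cells holding macrophage or monocyte transcripts the mdx5cv shares were 3.444% (quadriceps) and 2.621% (diaphragm). With all barcodes thinned to 1500 UMIs they were 3.172% and 2.295%, and that of WT diaphragm 0.331%.

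Counts of called genes, higher and lower, were 510 and 746 (genotype, quadriceps), 328 and 562 (genotype, diaphragm) and 272 and 291 (muscle, mdx5cv) with ratios relative to the median gene. At a minimum of 100 CPM they were 322 and 165, 194 and 197, and 22 and 42, and 112 genes were lower in WT diaphragm than in WT quadriceps. With no CPM minimum the mdx5cv muscle counts were 221 and 945.

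Of 427 called gene values, 353 stayed called without cells holding macrophage or monocyte transcripts, and 371 to 425 under the other settings. The following log2 ratios turned, and the cause was not tested. Without cells holding macrophage or monocyte transcripts, Chil3 was -2.261 for genotype in quadriceps and 0.3846 for muscle in mdx5cv, and Apoe 0.1331 for muscle in mdx5cv. Without the cell richest in the gene in each library, an alternative chosen after seeing the data, Ube2c was 0.6929 (genotype, quadriceps), Rrm2 1.439 and Cdkn1c -3.146 (genotype, diaphragm), Cdkn1c -2.727 (muscle, mdx5cv) and Ifit3 2.057 (muscle, WT). WT diaphragm held no Ifit3 UMI, so 2.057 compares the floor of 3 UMIs with what was left in quadriceps and shows no rise. The Chil3 value of -2.261 and the Cdkn1c value of -3.146 likewise set WT at that floor. Without the highest 6% of doublet scores Cdkn1c was -4.154 for genotype in diaphragm and -4.316 for muscle in mdx5cv. At a mitochondrial limit of 5%, muscle ratios in mdx5cv were 0.03686 for Retnla and 0.1072 for Spp1.

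No paired analysis was possible because each group is 1 library, which also left no replicate to leave out. WT values rest on 74 and 41 cells, and genes at a few UMIs there have wide intervals.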
